A study of Mus musculus with 16 samples.

Results

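The genes that build and serve the cilium by moving cargo along it, with the Rfx transcription factor genes, were compared between GFP+ and GFP- cells sorted from the olfactory mucosa of S100a5-tauGFP mice. The list named 41 genes: intraflagellar transport (IFT) subunits, Bardet-Biedl syndrome (BBS) genes, cilium motors, transition zone and ciliary membrane genes, and 6 Rfx genes. A gene entered where the annotation of the Clariom S mouse array gave its symbol to a probe set, and 38 of the 41 genes did, out of 19505 named genes measured. Each of the 38 genes had 1 probe set. Arl6, Kif17 and Arl13b were not analysed here, since no probe set carried those names.

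A cilium has no ribosomes, so its proteins are made in the cell body and carried in. IFT-B complexes ride kinesin-2 motors toward the tip, IFT-A complexes and the dynein-2 motor bring material back, and the BBSome, a coat-like complex of BBS proteins, links membrane proteins to these trains. The transition zone at the cilium base works as a gate. RFX factors bind a paired DNA motif, the X-box, in the promoters of many cilium genes. Olfactory sensory neurons hold their odorant receptors and transduction proteins in long cilia at the tip of the dendrite, and loss of BBS proteins impairs the sense of smell in mice and in people.

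In these mice a tau-linked reporter follows S100a5, which encodes a calcium-binding protein and is turned up in active olfactory neurons: its promoter drives green fluorescent protein. The mice numbered 24, were of both sexes and 7 to 12 weeks old, and each stayed alone for 40 h in a chamber supplied with 3.1 L of clean air per min. Pulses of 10 s began at 26 h and came every 20 min, of 2-hexanone, a small ketone (odor), or of filtered air (vehicle). The groups were GFP+ cells after odor, GFP- cells after odor, GFP+ cells after vehicle and GFP- cells after vehicle, all from S100a5-tauGFP mice, with 4 arrays in each group and 16 arrays in all. Each array came from a pool of 3 mice, and the GFP+ and GFP- cells of a replicate number and treatment came from the same pool, so there were 8 pools. The sort gate follows S100a5 promoter activity, so GFP- cells hold neurons with low reporter as well as the other cells of the mucosa. Precision is limited throughout by how few arrays each group has.

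The X-box was looked for as the letters GTNNCC, then 0 to 3 bases, then NGNAAC, on both strands, with overlapping matches merged, in the window from 250 bases before to 50 bases after each RefSeq gene start (GRCm38.p6). Of the 38 genes, 34 had a promoter in that table, and 11 of them (32.4%) held a match, against 1606 of 27025 genes (5.94%) in the whole table. The 11 genes were Ift22, Ift57, Ift74, Bbs1, Bbs4, Bbs7, Tctn1, Tctn2, Tctn3, Nphp4 and Rfx2, with matches at 2 places each for Ift22 and Ift57. A match is a description of the letters and not a site shown to be bound. The matches of Bbs7 (chr3:36613482-36613525, minus strand), Bbs1 (chr19:4906605-4906634, minus strand), Bbs4 (chr9:59353464-59353493, minus strand), Ift74 (chr4:94614478-94614506, plus strand) and Nphp4 (chr4:152477896-152477939, plus strand) are shown because these 5 of the 11 genes passed the test for the sort difference averaged over both treatments, given below. That of Rfx2 (chr17:56831095-56831139, minus strand) is shown as the match in an Rfx gene. All run 5′ to 3′ on the strand of the gene, and capitals mark the match.
Bbs7: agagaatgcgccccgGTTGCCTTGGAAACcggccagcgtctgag
Bbs1: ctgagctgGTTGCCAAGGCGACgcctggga
Bbs4: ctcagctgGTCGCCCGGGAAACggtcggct
Ift74: cggtgaccGTTGCTAGGATACgcggcgtc
Nphp4: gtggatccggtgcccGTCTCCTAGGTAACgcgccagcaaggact
Rfx2: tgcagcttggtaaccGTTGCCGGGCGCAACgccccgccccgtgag

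Rfx4, the gene with the widest sort difference of the 38, had 2 RefSeq starts on the plus strand, and neither window held a match. The 250 bases before each start are given because the results turn on this gene. The letters before the upstream start (chr10:84755798-84756047) and before the downstream start (chr10:84837898-84838147) are as follows, with no match to mark in capitals.
Rfx4 upstream start: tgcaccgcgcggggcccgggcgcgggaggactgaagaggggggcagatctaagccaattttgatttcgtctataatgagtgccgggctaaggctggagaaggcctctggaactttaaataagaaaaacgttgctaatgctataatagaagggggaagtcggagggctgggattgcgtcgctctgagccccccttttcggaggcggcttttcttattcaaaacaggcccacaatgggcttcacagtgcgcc
Rfx4 downstream start: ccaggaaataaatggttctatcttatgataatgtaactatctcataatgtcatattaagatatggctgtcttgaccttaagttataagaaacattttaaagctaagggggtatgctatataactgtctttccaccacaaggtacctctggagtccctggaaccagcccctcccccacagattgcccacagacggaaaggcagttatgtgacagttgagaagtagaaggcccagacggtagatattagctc

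All levels are log2 signals as the authors deposited them, and all differences are on that scale. The highest value in the table, 19.81, is above the 16 bits of a scanner, so an unstated transformation acts on every difference and fold. Each array's background floor is the highest of its 23 antigenomic background bins, and the floors lay at 6.16 to 7.33. Of the 38 genes, 33 were above the floor on all 16 arrays. Bbs10 and Bbs12, chaperonin-like BBS proteins that help assemble the BBSome, were below it on every array, and Rfx1, Rfx2 and Rfx5 were below it on some.

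S100a5 itself checked the gate. It read 16.92, 16.83, 16.17 and 16.98 in GFP+ cells against 15.18, 15.13, 14.89 and 15.23 in GFP- cells after odor, and 17.03, 16.27, 16.25 and 16.11 in GFP+ cells against 15.60, 15.06, 14.94 and 14.54 in GFP- cells after vehicle. It was higher in GFP+ cells of both treatments (adjusted p = 9.83e-05 after odor and 0.000514 after vehicle, limma). Omp, the olfactory marker protein of mature neurons, averaged 19.45 in GFP+ cells and 19.36 in GFP- cells after odor, and 19.38 and 19.37 after vehicle, near the top of the scale.

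Rfx4 had the widest sort difference of the 38 genes in both treatments. It encodes an RFX factor that mouse brain development needs for normal cilia. It read 9.16, 8.73, 8.97 and 9.07 in GFP+ cells and 7.69, 7.24, 6.92 and 7.37 in GFP- cells after odor. It read 9.05, 9.34, 9.21 and 9.43 in GFP+ cells and 7.49, 7.57, 7.25 and 7.44 in GFP- cells after vehicle. Every GFP+ array lay above every GFP- array, by more than the spread within any group, and all 16 arrays lay above their floor.

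The Rfx4 difference was 1.68 ± 0.18 after odor (SE, 4 pools, 3.21-fold, adjusted p = 1.37e-06) and 1.82 ± 0.18 after vehicle (3.53-fold, adjusted p = 5.27e-07), by limma with Benjamini-Hochberg adjustment over all 22206 probe sets. Within pools, GFP+ exceeded GFP- cells by 1.48, 1.49, 2.06 and 1.70 in odor pools 1 to 4, and by 1.56, 1.76, 1.96 and 1.99 in vehicle pools 1 to 4. The call held without each pool in turn and under the 9 other settings tried for each treatment. Those settings include the average over both treatments, which was chosen after seeing the data and is not a test of either treatment alone. In these bulk fractions, fewer cells of a type and less RNA per cell cannot be told apart.

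**Figure D1:**
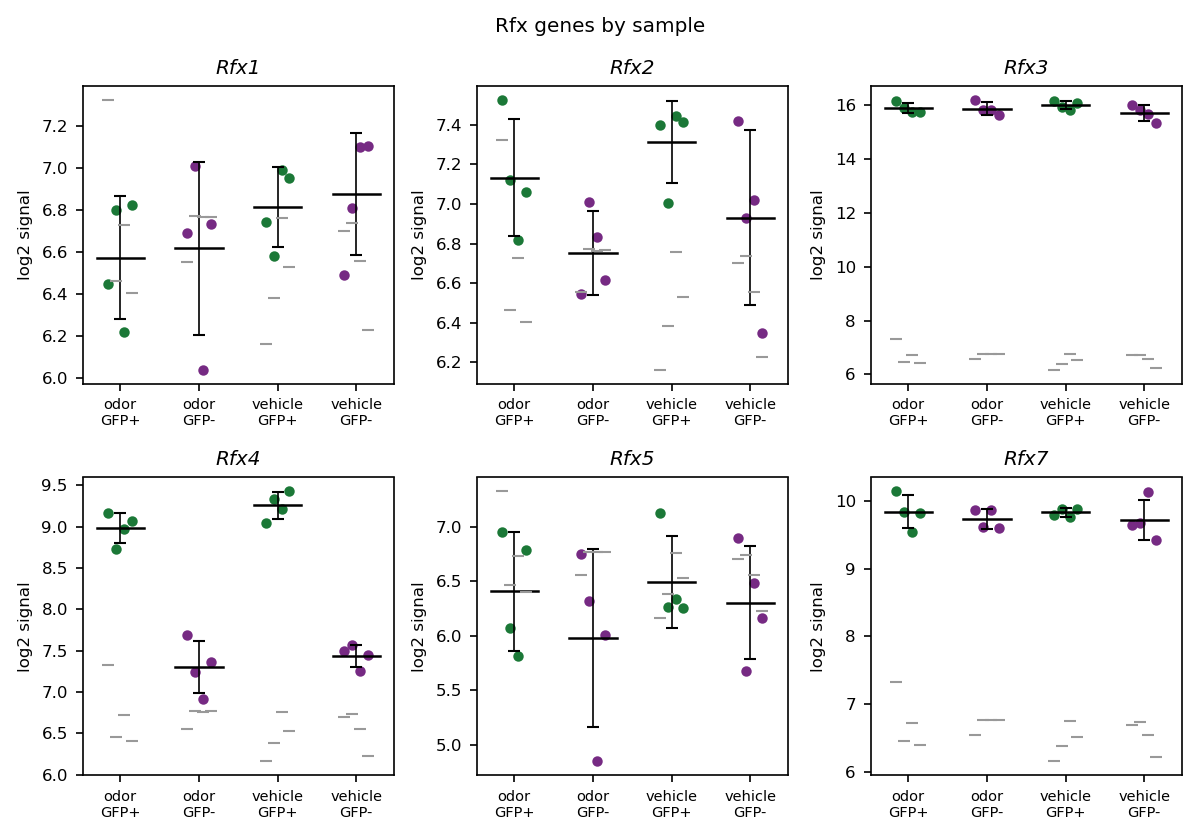
Log2 signal of the 6 Rfx genes on each array, with odor GFP+, odor GFP-, vehicle GFP+ and vehicle GFP- from left to right. Dots are arrays (pools of 3 mice), black lines the group means with SD bars, and grey dashes each array's background floor. The vertical axes differ between genes and do not start at 0. Rfx4 lies at 8.73 to 9.43 in GFP+ cells and at 6.92 to 7.69 in GFP- cells, and the groups of the other 5 genes overlap.

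The other 5 Rfx genes did not pass the test in either treatment, and their GFP+ and GFP- arrays overlapped. Rfx3, a regulator of ciliary genes in many mouse tissues, averaged 15.89 ± 0.19 in GFP+ cells and 15.88 ± 0.24 in GFP- cells after odor (SD, n = 4 each). After vehicle it averaged 16.01 ± 0.15 in GFP+ cells and 15.72 ± 0.28 in GFP- cells. The Rfx3 difference was 0.01 after odor (95% interval -0.38 to 0.40), and 0.29 after vehicle (-0.10 to 0.67).

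Rfx2, which acts beside Rfx3 in ciliated cells, averaged 7.13 in GFP+ cells and 6.75 in GFP- cells after odor, with 2 of the 4 GFP- arrays under the floor. After vehicle it averaged 7.31 in GFP+ cells and 6.93 in GFP- cells, so both differences were near 0.38 (adjusted p = 0.294 after odor and 0.276 after vehicle, limma). Rfx7, a more distant member of the RFX family, differed by 0.10 after odor and 0.11 after vehicle. Rfx5, which binds the promoters of MHC class II genes, differed by 0.43 after odor and 0.19 after vehicle, with 1 array of each group above the floor. Rfx1 differed by -0.04 after odor and -0.06 after vehicle, and GFP+ exceeded GFP- cells in 3 of 8 pools, the lowest count of the 38 genes.

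Across the 38 genes, small positive sort differences were the rule, and few reached the threshold. After odor 3 of 38 genes (7.89%) were higher in GFP+ cells and 0 lower at adjusted p below 0.05, beside 5.29% of all probe sets called higher and 9.56% called lower. These were Rfx4, Bbs1 and Bbs7. After vehicle 4 of 38 (10.5%) were higher and 0 lower, beside 5.83% of all probe sets called higher and 9.86% called lower. These were Rfx4, Ift80, Ift43 and Bbs12, the last under the floor on all arrays. Of the 33 genes above the floor on all arrays, 3 (9.09%) were called higher in each treatment. Of all probe sets above it on all arrays, 7.68% were called higher after odor and 8.04% after vehicle. At an unadjusted p under 0.05 the counts of the 38 genes were 14 after odor, beside 26.4% of all probe sets, and 11 after vehicle, beside 27.5%. GFP+ arrays lay wholly above GFP- arrays for 9 genes after odor, beside 9.4% of all probe sets, and for 7 after vehicle, beside 9.01%.

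The sign was more uniform than the calls. In each treatment 36 of the 38 genes had a difference above 0, beside 64.6% of all probe sets in each treatment. The median over the 38 genes was 0.38 after odor and 0.32 after vehicle, against 0.14 over all probe sets in each treatment. Among the 8160 probe sets above the floor on all arrays, the median was 0.17 after odor and 0.15 after vehicle. Within pools, 31 to 37 of the 38 genes were higher in GFP+ cells in odor pools, and 29 to 35 in vehicle pools, beside 56.3% to 60.4% of all probe sets in a pool. GFP+ exceeded GFP- cells in all 8 pools for 14 genes, beside 10.9% of all probe sets, and in at least 6 pools for 34 genes, beside 42.4%.

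GFP- cells also held the other cells of the mucosa, and the marker lists moved with the sort. All 14 immune genes were lower in GFP+ cells. The log2 of their summed level ran from 8.98 to 9.53 in GFP+ cells against 18.85 to 19.17 in GFP- cells after odor, and from 8.66 to 10.00 against 17.47 to 19.81 after vehicle. All 8 microvillous cell genes, 7 of 10 sustentacular, 4 of 7 progenitor genes and, of 12 immature neuron genes, 7 after odor and 8 after vehicle were lower too. Of all probe sets, 9.56% were called lower after odor and 9.86% after vehicle. The median difference of the 12 immature neuron genes was -2.45 after odor and -2.57 after vehicle, with 3 and 2 of them above 0. In each treatment, 3 of the 12 were under the floor on every GFP+ array and 0 on every GFP- array. Their summed level, which the genes of highest signal dominate, was not lower. It ran from 17.09 to 17.79 in GFP+ cells against 16.87 to 17.65 in GFP- cells after odor. After vehicle it ran from 16.97 to 17.91 against 16.94 to 17.55. The part of all these cell types in the differences of the 38 genes was not tested.

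Multiciliated cells of the respiratory epithelium share most of the 38 genes. Of 19 genes that mark them, 3 after odor and 5 after vehicle were higher in GFP+ cells and 0 lower, with medians of 0.39 and 0.37. The log2 of their summed level ran from 15.23 to 15.77 in GFP+ cells against 14.88 to 15.25 in GFP- cells after odor, and from 15.34 to 15.65 against 14.72 to 15.23 after vehicle. In each treatment, 5 of the 19 genes were under the floor on every GFP+ array and 6 on every GFP- array. Of 14 mature neuron genes, 2 after odor and 3 after vehicle were higher and 0 lower, with medians of 0.29 and 0.18. Over all probe sets, 5.29% were called higher after odor and 5.83% after vehicle. The part of either cell type in the differences of the 38 genes was not tested.

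**Figure D2:**
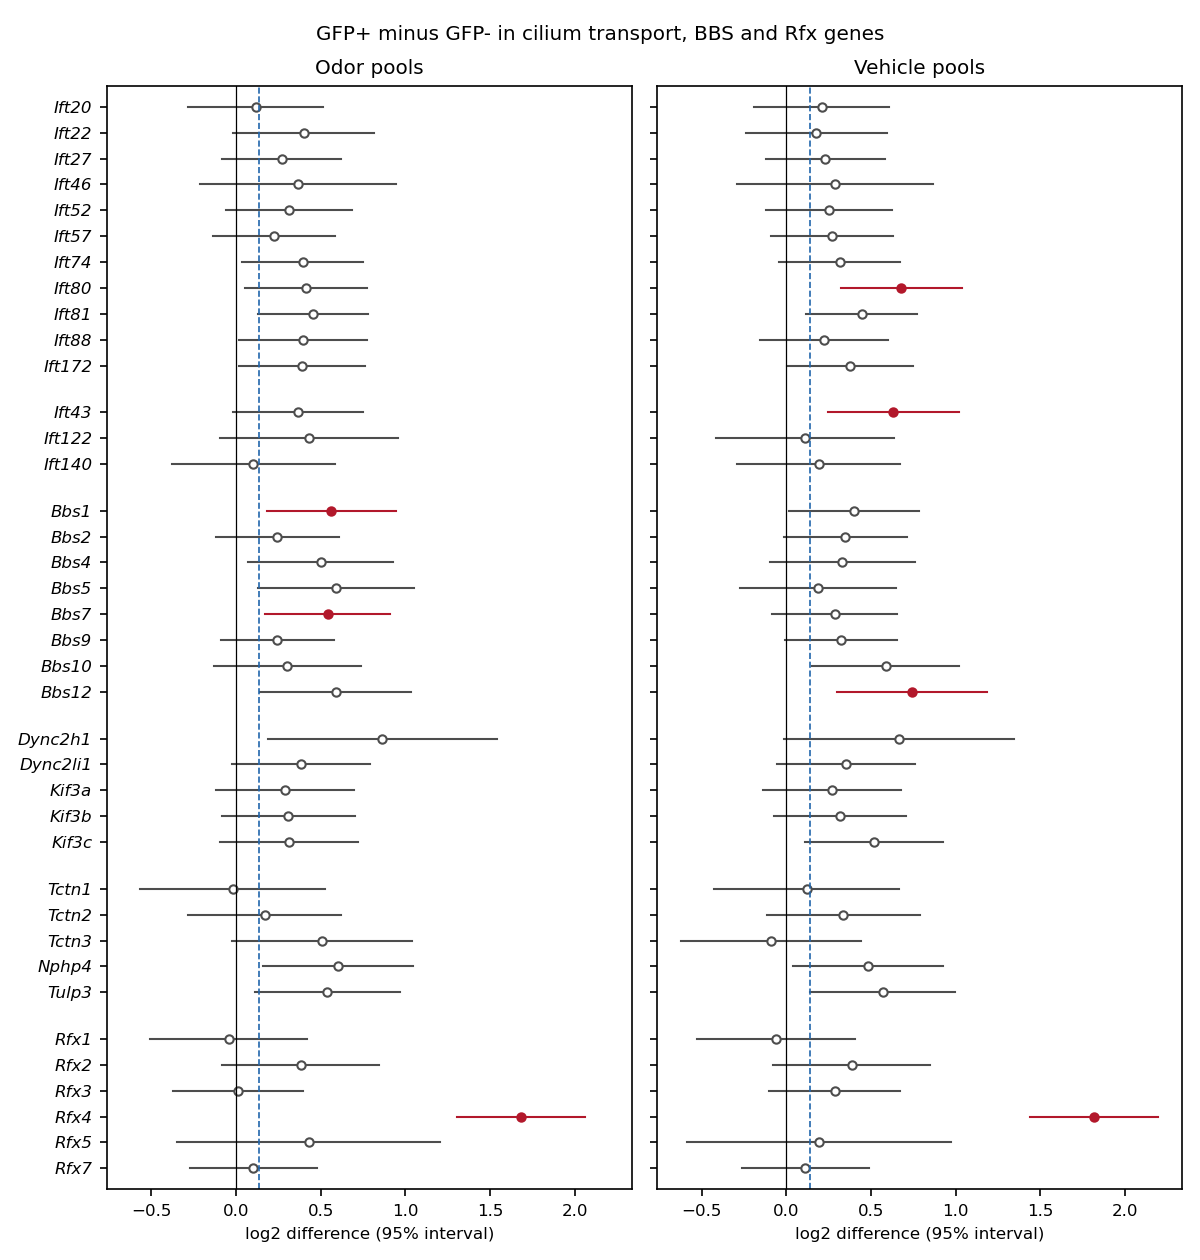
Sort difference (GFP+ minus GFP-, log2) of each gene with its 95% interval, after odor on the left and after vehicle on the right. Filled red points passed adjusted p below 0.05 (limma), open grey points did not, and the dashed blue line is the median of all probe sets. Rfx4 stands at 1.68 and 1.82, and most other genes lie between 0 and 0.7.

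IFT-B is the train that moves cargo toward the tip, and all 11 of its measured subunits had a difference above 0 in both treatments. The medians were 0.39 after odor and 0.27 after vehicle, and Ift80 after vehicle was the only one of them called. Ift80, an IFT-B subunit mutated in a human skeletal ciliopathy, read 14.72, 14.64, 14.39 and 14.40 in GFP+ cells and 14.12, 14.32, 13.92 and 14.12 in GFP- cells after odor. It read 14.70, 14.49, 14.78 and 14.65 in GFP+ cells and 14.21, 14.19, 13.86 and 13.64 in GFP- cells after vehicle. The arrays did not overlap in either treatment.

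The Ift80 difference was 0.68 ± 0.17 after vehicle (SE, 1.60-fold, adjusted p = 0.00901, limma) and 0.41 ± 0.17 after odor (1.33-fold, adjusted p = 0.124). The change of that difference between treatments was -0.27 (95% interval -0.77 to 0.24), so the call in 1 treatment does not show that the treatments differed. Without vehicle replicate 3 the vehicle difference was 0.60 (adjusted p = 0.0675), and without vehicle replicate 4 it was 0.57 (adjusted p = 0.0723).

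Ift81, which with Ift74 forms the tubulin-binding module of IFT-B, was also free of overlap in both treatments. It read 13.68, 13.53, 13.27 and 13.50 in GFP+ cells and 12.95, 13.05, 12.95 and 13.21 in GFP- cells after odor, and 13.67, 13.69, 13.54 and 13.42 in GFP+ cells and 13.28, 13.18, 13.16 and 12.92 in GFP- cells after vehicle. The differences, 0.45 and 0.44, missed the threshold (adjusted p = 0.0576 after odor and 0.0616 after vehicle, limma). They passed it with the pool as a random block (adjusted p = 0.0297 after odor and 0.0324 after vehicle), and missed it with the pool as a fixed block (0.0611 and 0.0656).

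Arrays without overlap in both treatments were found for 4 of the 38 genes (Rfx4, Ift80, Ift81 and Bbs12), beside 3.68% of all probe sets. Bbs12 was under the floor on all arrays, so its separation lies within background signal. Of the other IFT-B subunits, Ift74 differed by 0.39 after odor and 0.32 after vehicle, and Ift172, which turns the train round at the tip, by 0.39 and 0.38. Ift88, whose partial loss in mice gives polycystic kidneys and loss of smell, differed by 0.40 after odor and 0.22 after vehicle. Ift20, which also works at the Golgi to send proteins toward the cilium, differed by 0.12 and 0.21. Ift22 and Ift27, small GTPase-like subunits, differed by 0.40 and 0.27 after odor and by 0.18 and 0.23 after vehicle. Ift46, Ift52 and Ift57 lay between 0.22 and 0.37, and none of these genes was called.

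IFT-A, the train of the return path, had 3 measured subunits. Ift43 read 10.92, 10.65, 10.87 and 11.16 in GFP+ cells and 10.30, 10.62, 10.38 and 10.84 in GFP- cells after odor. It read 11.36, 11.06, 11.16 and 10.93 in GFP+ cells and 10.83, 10.29, 10.47 and 10.38 in GFP- cells after vehicle. The groups overlapped after odor and not after vehicle.

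The Ift43 difference was 0.63 ± 0.18 after vehicle (SE, 1.55-fold, adjusted p = 0.0231, limma) and 0.37 ± 0.18 after odor (adjusted p = 0.215). Leaving out vehicle replicate 2, 3 or 4 ended the vehicle call (adjusted p = 0.106, 0.0904 and 0.0640), and so did a fit of the vehicle arrays alone (0.0546). Ift122, a core subunit that also admits membrane receptors to the cilium, differed by 0.43 after odor and 0.11 after vehicle, and Ift140, another core subunit, by 0.10 and 0.19. Neither was called.

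The BBS genes had the highest median of the groups after odor, close to that of the transition zone and membrane genes (0.51). After vehicle the motor genes had the highest (0.35). The median of the BBS genes was 0.52 after odor and 0.34 after vehicle, and all 8 were above 0 in both treatments. Bbs1, a BBSome subunit that binds the GTPase Arl6 at the membrane, read 12.18, 11.89, 11.72 and 12.18 in GFP+ cells and 11.24, 11.38, 11.51 and 11.59 in GFP- cells after odor. It read 12.22, 11.88, 12.02 and 11.79 in GFP+ cells and 11.76, 11.86, 11.28 and 11.39 in GFP- cells after vehicle. The arrays were apart after odor and overlapped after vehicle.

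Bbs7, a BBSome subunit that pairs with Bbs2, read 11.68, 11.65, 11.65 and 11.59 in GFP+ cells and 10.83, 11.30, 10.86 and 11.43 in GFP- cells after odor. It read 11.62, 11.58, 11.22 and 11.16 in GFP+ cells and 11.10, 11.18, 10.98 and 11.17 in GFP- cells after vehicle. The GFP+ arrays after odor lay close together and above all GFP- arrays, and 1 GFP+ array after vehicle lay below 2 GFP- arrays.

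The Bbs1 difference was 0.56 ± 0.18 after odor (SE, 1.48-fold, adjusted p = 0.0447, limma) and 0.40 ± 0.18 after vehicle (adjusted p = 0.161). The Bbs7 difference was 0.54 ± 0.17 after odor (1.45-fold, adjusted p = 0.0455) and 0.29 ± 0.17 after vehicle (adjusted p = 0.310). Both odor calls sat at the threshold. They were lost with the pool as a fixed block (adjusted p = 0.0518 for Bbs1 and 0.0580 for Bbs7), after quantile normalization (0.0546 and 0.0600) and in a fit of the odor arrays alone (0.0658 and 0.0874). Of the 8 fits that left out 1 pool, Bbs1 passed in 3 and Bbs7 in 1, and without odor replicate 1 the differences were 0.44 for each (adjusted p = 0.228 for Bbs1 and 0.205 for Bbs7).

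The other BBSome subunits were not called. Bbs4, which links the complex to motor transport, differed by 0.50 after odor and 0.33 after vehicle, and Bbs5, which binds phosphoinositides, by 0.59 and 0.19. Bbs2 differed by 0.24 and 0.35, and Bbs9, which forms the core with Bbs2 and Bbs7, by 0.24 and 0.32. Bbs12 differed by 0.59 after odor and 0.74 after vehicle (adjusted p = 0.0727 and 0.0209, limma), and the vehicle call was lost without vehicle replicate 2 (0.59, adjusted p = 0.155) or 4 (0.62, adjusted p = 0.126). Bbs10 differed by 0.30 and 0.59. Bbs10 and Bbs12 lay at 2.82 to 6.08, under the floor on all arrays, so no fold is given for them.

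**Figure D3:**
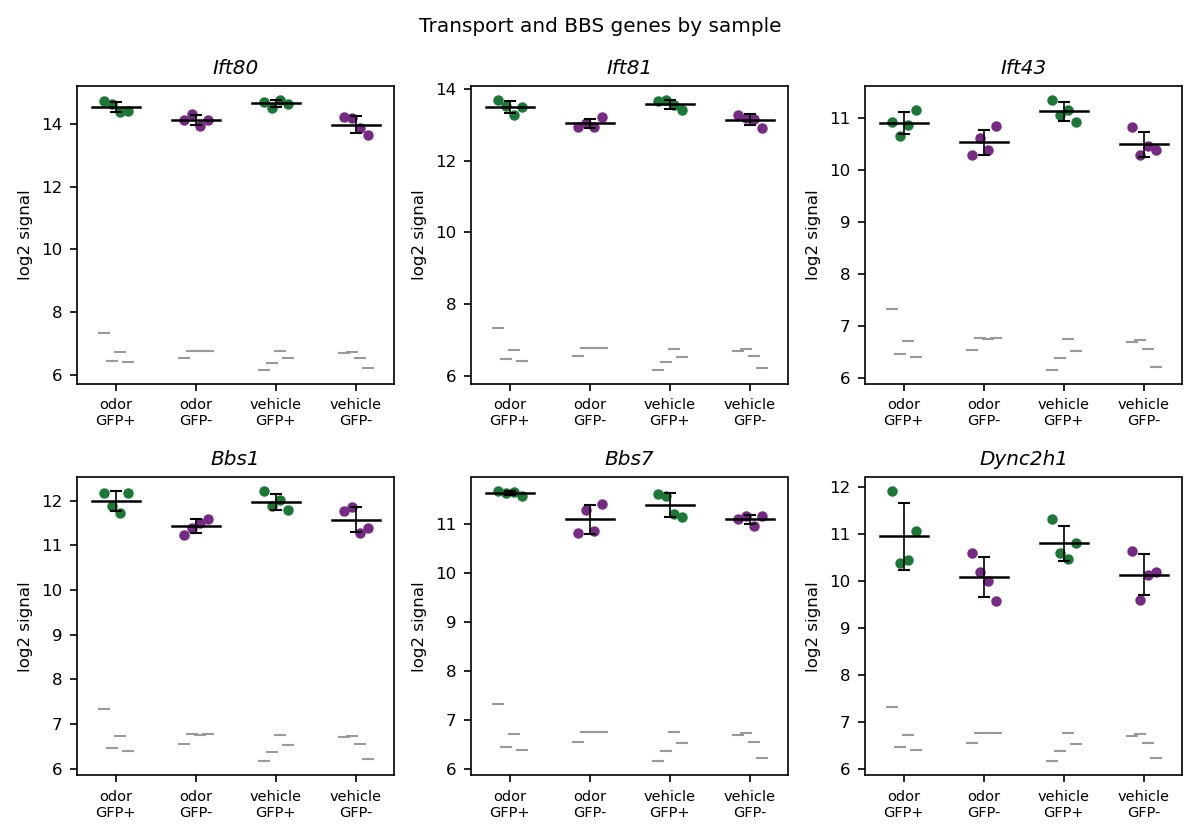
Log2 signal of Ift80, Ift81, Ift43, Bbs1, Bbs7 and Dync2h1 on each array, with odor GFP+, odor GFP-, vehicle GFP+ and vehicle GFP- from left to right. Dots are arrays, black lines the group means with SD bars, and grey dashes each array's background floor, and the vertical axes do not start at 0. GFP+ and GFP- arrays of Ift80 and Ift81 do not overlap within a treatment, and Dync2h1 has the widest spread, with SDs of 0.37 to 0.71.

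None of the 5 motor genes was called in either treatment, and all were above 0 in both. Dync2h1, the heavy chain of dynein-2, read 11.91, 10.38, 10.44 and 11.07 in GFP+ cells and 10.60, 10.18, 10.01 and 9.57 in GFP- cells after odor. It read 11.32, 10.60, 10.48 and 10.82 in GFP+ cells and 10.64, 9.60, 10.12 and 10.19 in GFP- cells after vehicle. Its difference was 0.86 ± 0.32 after odor (SE, adjusted p = 0.0854, limma) and 0.67 ± 0.32 after vehicle (adjusted p = 0.190). That was wide beside most others, and the groups overlapped, while GFP+ exceeded GFP- cells in all 8 pools. With the pool as a fixed block, the Dync2h1 difference passed after odor (adjusted p = 0.0243, limma) and not after vehicle (0.0713).

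Dync2li1, the light intermediate chain of dynein-2, differed by 0.38 after odor and 0.35 after vehicle. The kinesin-2 motor subunits Kif3a and Kif3b differed by 0.29 and 0.31 after odor and by 0.27 and 0.32 after vehicle. Kif3c, which pairs with Kif3a in neurons, differed by 0.31 after odor and 0.52 after vehicle (adjusted p = 0.333 and 0.0843, limma), with no overlap after vehicle. With the pool as a fixed block, Kif3c passed after vehicle (adjusted p = 0.0480, limma) and not after odor (0.226).

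At the transition zone and membrane the differences were mixed, and none was called. Tulp3, which ferries receptors into the cilium with IFT-A, differed by 0.54 after odor and 0.57 after vehicle (adjusted p = 0.0878 and 0.0679, limma), and was higher in GFP+ cells of all 8 pools. With the pool as a fixed block, Tulp3 passed in both treatments (adjusted p = 0.0476 after odor and 0.0367 after vehicle, limma). Nphp4, a nephronophthisis protein of the gate, averaged 9.47 ± 0.47 in GFP+ cells and 8.87 ± 0.07 in GFP- cells after odor (SD, n = 4 each), without overlap. After vehicle it averaged 9.49 ± 0.14 in GFP+ cells and 9.01 ± 0.28 in GFP- cells, with overlap. The Nphp4 differences were 0.60 and 0.48 (adjusted p = 0.0653 after odor and 0.143 after vehicle).

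The tectonic genes, whose proteins sit in the gate complex, gave no shared direction. Tctn1 differed by -0.02 after odor and 0.12 after vehicle, Tctn2 by 0.17 and 0.34, and Tctn3 by 0.51 and -0.09. Tctn1 and Tctn3 were higher in GFP+ cells in 5 of 8 pools each. On arrays centred on their medians, the difference of Tctn1 after odor was 0.33 and that of Tctn3 after vehicle 0.27, as every difference moved up there.

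**Figure D4:**
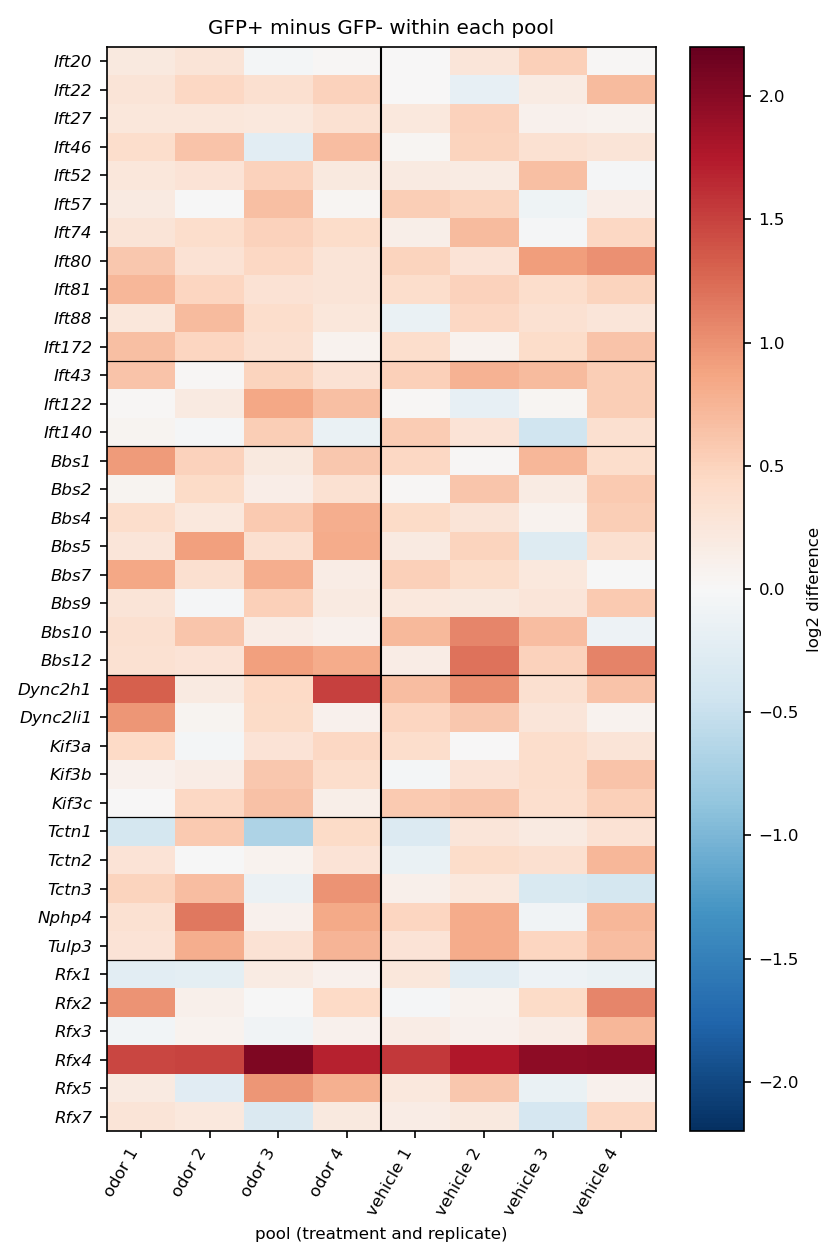
Difference between GFP+ and GFP- cells of the same pool (log2) for each gene in rows, grouped by role, and for the 4 odor pools then the 4 vehicle pools in columns. Red is higher in GFP+ cells, blue lower and white near 0. Rfx4 is the darkest row, at 1.48 to 2.06, most other rows are pale red in nearly all pools, and the rows with most blue cells are Rfx1 (5 of 8 pools) and Ift140, Tctn1 and Tctn3 (3 of 8 each).

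The sort difference averaged over both treatments, a comparison chosen after seeing the data, drew on all 8 pools. It called 15 of the 38 genes higher in GFP+ cells and 0 lower (39.5%), beside 13.4% of all probe sets called higher. Among the 8160 probe sets above the floor on all arrays, it called 19.6% higher. By role these were 4 of 11 IFT-B genes (Ift74, Ift80, Ift81 and Ift172), 1 of 3 IFT-A genes (Ift43), 5 of 8 BBS genes (Bbs1, Bbs4, Bbs7, Bbs10 and Bbs12), 2 of 5 motor genes (Dync2h1 and Kif3c), 2 of 5 transition zone and membrane genes (Nphp4 and Tulp3), and 1 of 6 Rfx genes (Rfx4). Bbs10 and Bbs12 are under the floor on all arrays, and of the 6 BBS genes above it on all arrays 3 were called.

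In this average the Rfx4 difference was 1.75 ± 0.13 (SE, adjusted p = 3.89e-09, limma), and the next lowest adjusted p was that of Ift80 (0.55 ± 0.12, adjusted p = 0.00216). The other 13 called genes differed by 0.35 (Ift74) to 0.76 (Dync2h1). With the pool as a random block, since both fractions of a pool share their mice, the calls within a treatment came to 9 genes after odor (beside 7.81% of all probe sets) and 8 after vehicle (beside 8.39%). After odor these were Ift81, Bbs1, Bbs5, Bbs7, Bbs12, Dync2h1, Nphp4, Tulp3 and Rfx4, and after vehicle Ift80, Ift81, Ift43, Bbs10, Bbs12, Kif3c, Tulp3 and Rfx4. With the pool as a fixed block the counts were 3 after odor (Rfx4, Dync2h1 and Tulp3, beside 6.83%) and 6 after vehicle (beside 7.16%).

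The scaling of the arrays set how many genes passed. After quantile normalization 3 of the 38 genes were called higher after odor (beside 8.35% of all probe sets) and 7 after vehicle (beside 8.88%). Centring each array on its median moved every difference up, the median of all probe sets to 0.49 after odor and 0.50 after vehicle, and called 31 of the 38 genes in each treatment, beside 38.4% and 40.5% of all probe sets. Relative to the median of all probe sets, the 38 genes lay at 0.25 after odor and 0.18 after vehicle. Centring cannot change these values, since it moves all probe sets of an array by the same amount. After quantile normalization they were 0.195 after odor and 0.133 after vehicle.

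The sort differences can be set beside the X-box matches given above, as a description with no test. The 11 genes with a match had a median of 0.40 after odor and 0.32 after vehicle, and the 23 genes with a promoter but no match had medians of 0.31 and 0.29. Bbs1 and Bbs7 held a match, and Rfx4, Ift43 and Bbs12 had a promoter in the table without a match. For Ift80 and Ift81 the table gave no promoter.

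Other genes of the same pathways, taken from a list that holds none of the 38, were set beside them. Of 37 other cilium transport genes, 3 were higher and 1 lower in GFP+ cells after odor, and 2 higher and 0 lower after vehicle, with medians of 0.33 and 0.29. Of 21 other transition zone genes, 3 were higher and 0 lower in each treatment, with medians of 0.39 after odor and 0.44 after vehicle. The shares called higher were 8.11% after odor and 5.41% after vehicle for the transport genes, and 14.3% in each treatment for the transition zone genes. Of all probe sets, 5.29% were called higher and 9.56% lower after odor, and 5.83% and 9.86% after vehicle. Among those above the floor on all arrays, 7.68% were called higher after odor and 8.04% after vehicle. Of 4 other Rfx-related genes, 0 were called in either treatment, and at an unadjusted p under 0.05 the counts were 0 after odor and 1 after vehicle (limma). Their medians were -0.08 after odor, with 3 of 4 below 0, and 0.40 after vehicle, with 1 of 4 below 0.

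Ttc30b, an IFT-B subunit, was higher in both treatments, at 12.96, 13.11, 13.00 and 12.75 in GFP+ cells against 12.60, 12.25, 12.39 and 12.30 in GFP- cells after odor, and at 13.05, 13.13, 13.05 and 12.88 against 12.53, 12.40, 12.40 and 12.19 after vehicle. The Ttc30b difference was 0.57 after odor and 0.65 after vehicle (adjusted p = 0.0153 and 0.00617, limma), without overlap in either treatment. After odor Tmem237, a gate protein, differed by 0.79, Inpp5e, the ciliary phosphoinositide phosphatase, by 0.60, and Wdr35, an IFT-A subunit, by 0.83. Unc119, which carries lipid-modified proteins to the cilium, was the lower gene after odor, at -0.75 (adjusted p = 0.0460). After vehicle the genes of lowest adjusted p besides Ttc30b were Cep164 (at least 1.59-fold), Traf3ip1 (0.54) and Cep290 (0.68).

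No difference between odor and vehicle passed the test for any of the 38 genes. In GFP+ cells 0 of 38 were called between odor and vehicle, beside 0.00901% of all probe sets, and 0 had an unadjusted p under 0.05, beside 3.91% (limma). The differences ran from -0.27 (Rfx4) to 0.44 (Tctn3), with a median of -0.03. The arrays of odor and vehicle overlapped for all 38 genes, while 1.01% of all probe sets had odor arrays wholly above vehicle arrays and 1% wholly below.

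In GFP- cells 0 of 38 were called, beside 0% of all probe sets, and 0 had an unadjusted p under 0.05, beside 2.46% (limma). The differences ran from -0.33 (Ift22) to 0.26 (Bbs10), with a median of -0.04, and the arrays overlapped for all 38 genes, against 0.941% of all probe sets wholly above and 0.833% wholly below. Rfx4 averaged 8.98 ± 0.19 after odor and 9.26 ± 0.16 after vehicle in GFP+ cells (SD, n = 4 each), a difference of -0.27 (95% interval -0.65 to 0.11). In GFP- cells it averaged 7.30 ± 0.32 after odor and 7.44 ± 0.14 after vehicle.

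The change of the sort difference with odor was called for 0 of 38 genes, beside 0.00901% of all probe sets, and 0 had an unadjusted p under 0.05, beside 2.93% (limma). It ran from -0.29 (Bbs10) to 0.60 (Tctn3, 95% interval -0.15 to 1.35). The 95% intervals reached 0.33 to 0.78 to either side of a difference between odor and vehicle. For the change of the sort difference they reached 0.46 to 1.10. Changes inside these intervals are not excluded. The widths are not limits of detection, since a call also had to pass adjustment over all 22206 probe sets.

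**Figure D5:**
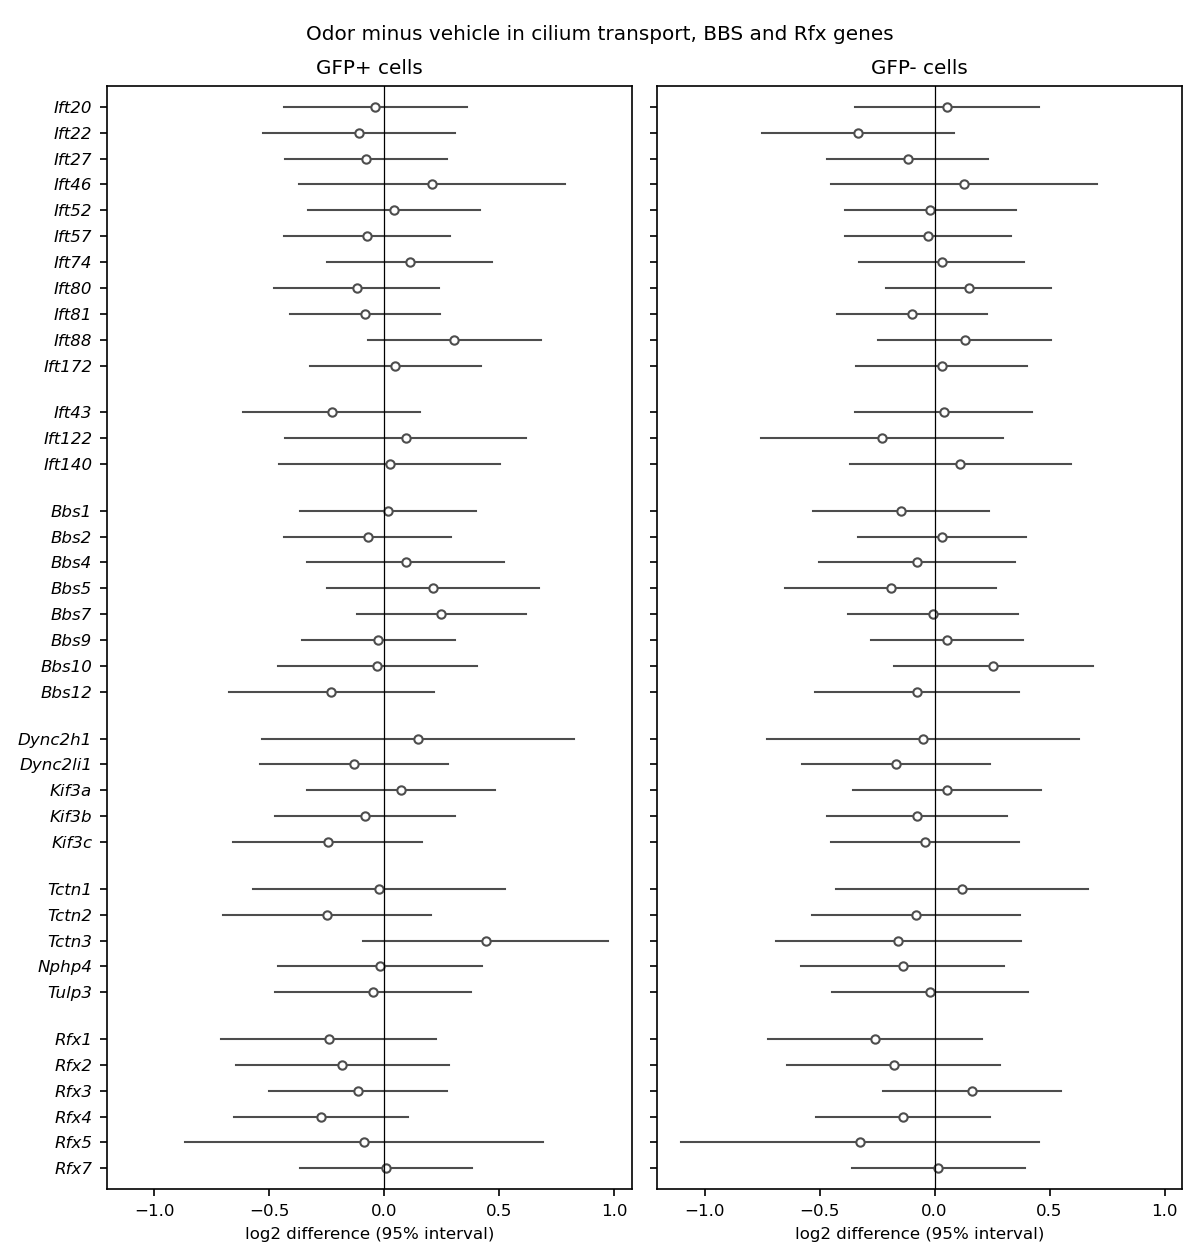
Odor minus vehicle (log2) for each gene with its 95% interval, in GFP+ cells on the left and GFP- cells on the right. Open grey points did not pass adjusted p below 0.05 (limma), and no point passed. All differences lie between -0.33 and 0.44, and every interval includes 0.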

How the data were processed

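Clariom S arrays measured 50 to 100 ng RNA of sorted cells per sample, per the labels' protocols. The authors deposited 1 log2 signal for each probe set and array. The submitters' processing notes name Affymetrix Expression Console. How it was set, and its version, is not given in the sources used here. Of 28846 deposited rows, 6546 negative or positive control, 63 spike-in and 31 other control rows were left out, and 22206 were tested.

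Sample titles gave the groups and the replicate numbers. Tests used limma 3.58.1 in R 4.3.3 (lmFit and eBayes) on 4 group means over all 16 arrays, with 12 residual degrees of freedom and no covariate. A gene was called at a Benjamini-Hochberg adjusted p below 0.05 over all 22206 probe sets. The steps were tested on simulated data. Python 3.11.15 and matplotlib 3.10.9 drew the plots.

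The 38 genes and all other gene lists were chosen with earlier results of these data known. The rule for names took all 38 genes, S100a5 and Omp, and per direction and treatment up to 4 called genes of lowest adjusted p from the other pathway lists.

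Per the labels, both fractions of a pool came from the same mice. Correlations of their deviations from group means were 0.425, 0.0749, 0.161 and 0.109 in odor pools 1 to 4, and 0.352, 0.0136, 0.0516 and 0.0837 in vehicle pools 1 to 4 (consensus 0.171). The alternatives were pool as a random or fixed block, quantile normalization, median centring, the lowest 20% of probe sets left out, a trended robust prior, only the arrays compared, each pool left out, both replicate 1 pools left out and, chosen after seeing the data, the average over both treatments. For the odor contrasts the replicate number was also a fixed block.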

Additional observations from a re-analysis of the deposited data

Results flagged for a closer look

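Within a group of 4 arrays, 1 array was marked where its gap to the nearest other array took up most of the group's range (Dixon's test at its 95% critical value). Chance alone marks about 1 in 20 groups, and 10 of 152 group values were marked. Among GFP+ arrays after odor, Ift74 read 13.77 in replicate 4 against 14.03 to 14.08 in the others, Dync2li1 9.73 in replicate 1 against 9.01 to 9.13, and Tulp3 8.52 in replicate 2 against 8.09 to 8.10. Among GFP- arrays after odor, Ift22 read 11.23 in replicate 2 against 10.79 to 10.84, Kif3c 10.91 in replicate 1 against 10.24 to 10.28, and Tulp3 7.34 in replicate 4 against 7.73 to 7.80. Among GFP+ arrays after vehicle, Rfx2 read 7.00 in replicate 2 against 7.40 to 7.44, and Rfx5 7.13 in replicate 1 against 6.26 to 6.33. Among GFP- arrays after vehicle, Ift52 read 10.29 in replicate 3 against 10.60 to 10.63, and Dync2li1 9.32 in replicate 3 against 8.89 to 8.94. The causes were not tested.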

How the results depend on the processing

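The call of Rfx4 held in both treatments under every alternative run within a treatment, and in the average over both treatments. Counts of the 38 genes called higher in GFP+ cells moved more. After odor, 3 genes became 9 with the pool as a random replicate block, 31 on arrays centred on medians, 1 with only the arrays compared, 1 without both replicate 1 pools and 15 for the average over both treatments, a comparison chosen after seeing the data. After vehicle, 4 genes became 8 with the random block, 7 after quantile normalization, 31 on centred arrays and 15 for the average. With the pool as a fixed block the counts were 3 and 6. Leaving out 1 pool gave 1 to 3 genes after odor (beside 3.16% to 5.37% of all probe sets) and 2 to 4 after vehicle (beside 3.34% to 5.65%), with medians of the 38 genes of 0.35 to 0.39 and 0.27 to 0.35. The counts were 1 without odor replicate 1 or 2, or vehicle replicate 2 or 4, after odor, and 2 without vehicle replicate 2, 3 or 4 after vehicle. The median was 0.34 after odor under quantile normalization, 0.32 in the average, and 0.73 after odor and 0.68 after vehicle on centred arrays. On centred arrays the median of all probe sets was 0.49 after odor and 0.50 after vehicle, with 38.4% and 40.5% of them called higher. The 38 genes lay 0.25 and 0.18 above it, a gap that centring cannot change. Under quantile normalization the gap was 0.195 after odor and 0.133 after vehicle. The sign turned for differences near 0. After odor it turned for Rfx1 (0.27 under quantile normalization, 0.31 centred, 0.021 without both replicate 1 pools), Rfx3 (-0.039 under quantile normalization) and Tctn1 (0.33 centred, 0.10 without both replicate 1 pools, 0.049 in the average). After vehicle it turned for Rfx1 (0.23 under quantile normalization, 0.30 centred) and Tctn3 (0.27 centred, 0.21 in the average). Over the fits that left out 1 pool, the odor difference of Tctn1 ran from -0.22 to 0.20, of Rfx1 from -0.12 to 0.021, of Rfx3 from -0.018 to 0.043 and of Ift140 from -0.042 to 0.19. The vehicle difference of Ift122 ran from -0.036 to 0.21, of Tctn3 from -0.20 to 0.00484 and of Rfx7 from -0.0014 to 0.27. The causes were not tested. Between odor and vehicle, 0 of the 38 genes were called under each alternative run for that comparison, the replicate number as a fixed block and the pool as a random block included. The pool as a fixed block and the average were not run there, since each pool had 1 treatment and the average takes in both. No gene had a further probe set, so the alternative of the next highest probe set gave no value. The SE of a sort difference was widest for Rfx5 (0.37) and Dync2h1 (0.32). Bbs10 and Bbs12 on all arrays, and Rfx1, Rfx2 and Rfx5 on some, were not above background.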
